A study of Mus musculus with 4 samples.

Results

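The genes described here are Trp53, which encodes the tumor suppressor p53, and 9 genes of its circuit, the regulators Mdm2 and Mdm4 and the target genes Ccng1, Sesn1, Trp53inp1, Zmat3, Pmaip1, Bbc3 and Phlda3. They were chosen by symbol, and all 10 were found by NCBI gene number among the 27179 genes with a deposited value. The 4 RNA-seq libraries, a WT and a CD274-null group of 2 each, held RNA of LICs (leukemia-initiating cells, labelled LSC) sorted from bone marrow of C57BL/6 mice aged 6 weeks with MLL-AF9 leukemia. Both groups carried the MLL-AF9 fusion, delivered with a retrovirus to lineage-negative fetal liver cells that were then transplanted into irradiated C57BL/6 recipients. The groups differed by genotype, wild type in one and CD274-/- in the other, the latter from knockout mice and not from a deletion induced in established leukemia. How many mice entered a library, and after which transplantation, was not given in the sources used here, so p-values measure the spread between these libraries. The question asked of the data was whether the target genes followed the Trp53 transcript.

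p53 is a transcription factor that is kept low by MDM2, a ubiquitin ligase that marks it for degradation, and held inactive by the related protein MDM4. Stress such as DNA damage or oncogene activity frees p53, mostly at the level of the protein, and it then switches on genes for cell cycle arrest, DNA repair, antioxidant defence and apoptosis, as well as Mdm2 itself, which closes a feedback loop. In acute myeloid leukemia with MLL fusions the gene is often intact, and in hematopoietic cells the apoptotic targets Bbc3 and Pmaip1 are well known mediators of its effect.

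FPKM, the number of fragments scaled to transcript length and library depth, is the deposited unit. The reads behind it were recovered as whole numbers in lowest terms, with totals from 8446404 to 11045783 per library. Cd274, the deleted gene, had an FPKM of 2.80 and 0.945 in WT against 1.43 and 2.29 in CD274-null, so that it did not separate the groups, and each direction below rests on the labels. Itgam (Mac-1) had an FPKM between 100 and 174 in the 4 libraries. Kit was at 6.59 in WT replicate 1 and between 16.2 and 19.5 elsewhere, so both genes of the sorting gate were detected. From the same marker list, Hoxa9 ranged only from 71.3 to 75.8 and Meis1 from 35.6 to 44.6. Mpo, the myeloperoxidase gene of early myeloid cells, had 444 and 403 in WT against 1427 and 925 in CD274-null. Its libraries ran in the order of Trp53, which held for 5.28% of all other tested genes. Immunoglobulin, globin and sex chromosome transcripts also differed between the libraries. The summed FPKM of 8 plasma cell markers was 23.4 and 23.0 in WT against 391 and 465 in CD274-null, of which 4 markers were high enough to be tested. Of 8 B cell markers, which summed to between 12.9 and 39.7, only Cd79b was high enough to be tested. Xist was 2.57 and 51.1 in WT against 107 and 68.7 in CD274-null, and the Y-linked gene Eif2s3y was 49.7 and 40.2 against 0 and 19.9. The summed FPKM of 8 neutrophil markers ranged from 8746 in WT replicate 2 to 43395 in WT replicate 1, with both CD274-null libraries between them. WT replicate 2 stood apart in the erythroid markers, whose summed FPKM was 2.54 and 55.6 in WT against 4.73 and 0.480 in CD274-null. Ccng1, Trp53inp1 and Zmat3 were highest in that same library, as were 3869 of the 13230 genes high enough to be tested. The part of these differences in the results below was not tested.

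Promoter sequences are shown first, because p53 acts on its targets through a DNA element made of decamer half-sites, and they show which genes carry such letters close to their start. RefSeq windows on GRCm38.p6, from 250 bases before to 50 bases after a gene start, were at hand for 7 of the 10 genes, 11 windows in all. The p53 half-site consensus decamer, which reads the same on both strands, was found without mismatch in 4 of these windows, 1 each for Trp53, Mdm2, Ccng1 and Sesn1. Among all 32851 windows of this length, 8.36% held it. Each stretch below is the part of the window that lies before the start and outside exons of the GENCODE annotation, read in the direction of the gene, with the half-site in capitals. The last bases of the Trp53 stretch fall within the gene as RefSeq draws it, since RefSeq begins it slightly upstream of the start used for the window.

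Trp53, chr11:69580256-69580358, plus strand: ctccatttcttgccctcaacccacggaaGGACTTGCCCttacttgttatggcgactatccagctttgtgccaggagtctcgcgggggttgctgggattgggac
Mdm2, chr10:117710759-117711008, minus strand: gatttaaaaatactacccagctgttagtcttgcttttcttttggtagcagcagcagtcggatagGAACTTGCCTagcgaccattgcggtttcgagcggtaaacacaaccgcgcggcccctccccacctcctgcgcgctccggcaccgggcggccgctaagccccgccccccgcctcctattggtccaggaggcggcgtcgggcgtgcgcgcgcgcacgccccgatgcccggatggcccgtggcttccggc
Ccng1, chr11:40755312-40755536, minus strand: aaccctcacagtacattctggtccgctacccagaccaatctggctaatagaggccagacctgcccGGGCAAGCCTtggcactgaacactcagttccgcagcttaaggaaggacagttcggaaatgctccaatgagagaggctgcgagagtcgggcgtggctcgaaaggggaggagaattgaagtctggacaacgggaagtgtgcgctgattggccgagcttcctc
Sesn1, chr10:41887189-41887438, plus strand: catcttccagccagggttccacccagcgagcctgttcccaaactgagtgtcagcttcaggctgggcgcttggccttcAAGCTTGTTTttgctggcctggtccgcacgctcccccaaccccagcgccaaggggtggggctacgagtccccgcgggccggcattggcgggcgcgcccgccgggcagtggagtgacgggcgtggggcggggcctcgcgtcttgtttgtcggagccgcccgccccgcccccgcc

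In Ccng1 the half-site began 185 bases before the start, and a second decamer with 1 mismatch lay directly before it, with a spacer of 0 bases. A pair of half-sites with at most 1 mismatch in all and a spacer of up to 13 bases was present in 1.09% of all windows. Sesn1 has 2 annotated starts, and the element lay 173 bases before the downstream one. The windows of Mdm4, Phlda3 and Bbc3 held no half-site without mismatch. A match to these letters is not a measured binding site, and p53 elements in introns or farther upstream lie outside the windows.

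Trp53 (NCBI gene 22059, chromosome 11 from 69580348 to 69591873) was higher in both libraries labelled CD274-null. Its FPKM was 31.7 and 31.4 in WT against 66.2 and 54.9 in CD274-null, from 686, 598, 1093 and 1022 recovered reads. The WT values were almost equal, the CD274-null values were apart by more than their counting intervals, and the groups did not overlap. The means were 31.6 ± 0.214 (SD, n = 2) and 60.6 ± 7.93 (SD, n = 2), and the log2 fold change on the log2(FPKM + 0.5) scale was 0.92 (standard error, SE, 0.21, 95% interval 0.41 to 1.43, unadjusted p = 0.00417, adjusted p = 0.255 in limma after the Benjamini-Hochberg procedure). Genes that changed more than 1.5-fold with an unadjusted p under 0.01, the limits the study used, are called candidates. Trp53 was the only candidate among the 9 genes high enough to be tested, while 3.63% of all 13230 tested genes were candidates, 2.39% higher and 1.24% lower. None of the 9 had an adjusted p under 0.05, against 0.0756% of all tested genes; 2 of them, Trp53 and Ccng1, had an unadjusted p under 0.05, as did 13.7% of all.

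The Trp53 call was near its threshold. When any 1 of the 4 libraries was left out, the log2 fold change stayed between 0.79 and 1.05 but the p rose to between 0.0108 and 0.0400, above the candidate limit. In each fit with a library left out, here and below, 1 group is a single library that is assumed to vary like the other group, so that a call made there describes that library and not a change of the group. Across all tested genes with an annotated transcript the fold change followed GC content (Spearman's rho 0.271 across genes, which are not independent replicates), and the longest Trp53 transcript has 53.3% GC, where the median of these genes was 49.8%. With each library corrected for GC content the log2 fold change of Trp53 was 0.82 (unadjusted p = 0.00504 in limma).

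Neighbouring and similar sequences were examined, because the library kit does not keep the strand. No exon of the 10 genes overlapped an exon of another gene in GENCODE's annotation. Wrap53, which lies head to head with Trp53 on the other strand, had an FPKM of 13.5 and 12.3 in WT against 12.9 and 16.4 in CD274-null, with overlapping groups. Of the 50-base stretches of the longest Trp53 transcript, 3.04% also occurred in transcripts of other genes. For Mdm4 the share was 15.5%, all of it in its processed pseudogene Mdm4-ps, so the level of Mdm4 is uncertain to that extent. For Ccng1, Sesn1, Trp53inp1, Pmaip1, Bbc3 and Phlda3 there were 0 such stretches.

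The primer pair that the study lists for p53 is shown because its letters match another gene.

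p53-F: tcacagcgtctgttgacattt
p53-R: accaagctcattaccctgaca

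Both matched transcripts of Zfp53, a zinc finger gene on chromosome 17, without mismatch, the forward primer across exons 2 and 3 and the reverse primer in exon 4, and in the 6 annotated Trp53 transcripts each had at least 7 mismatches. Zfp53 had an FPKM of 4.46 and 6.67 in WT against 5.36 and 4.47 in CD274-null (log2 fold change -0.14, SE 0.33, adjusted p = 0.877 in limma). Zfp53 was therefore lower than Trp53 in every library, and its groups overlapped where those of Trp53 did not.

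**Figure D1:**
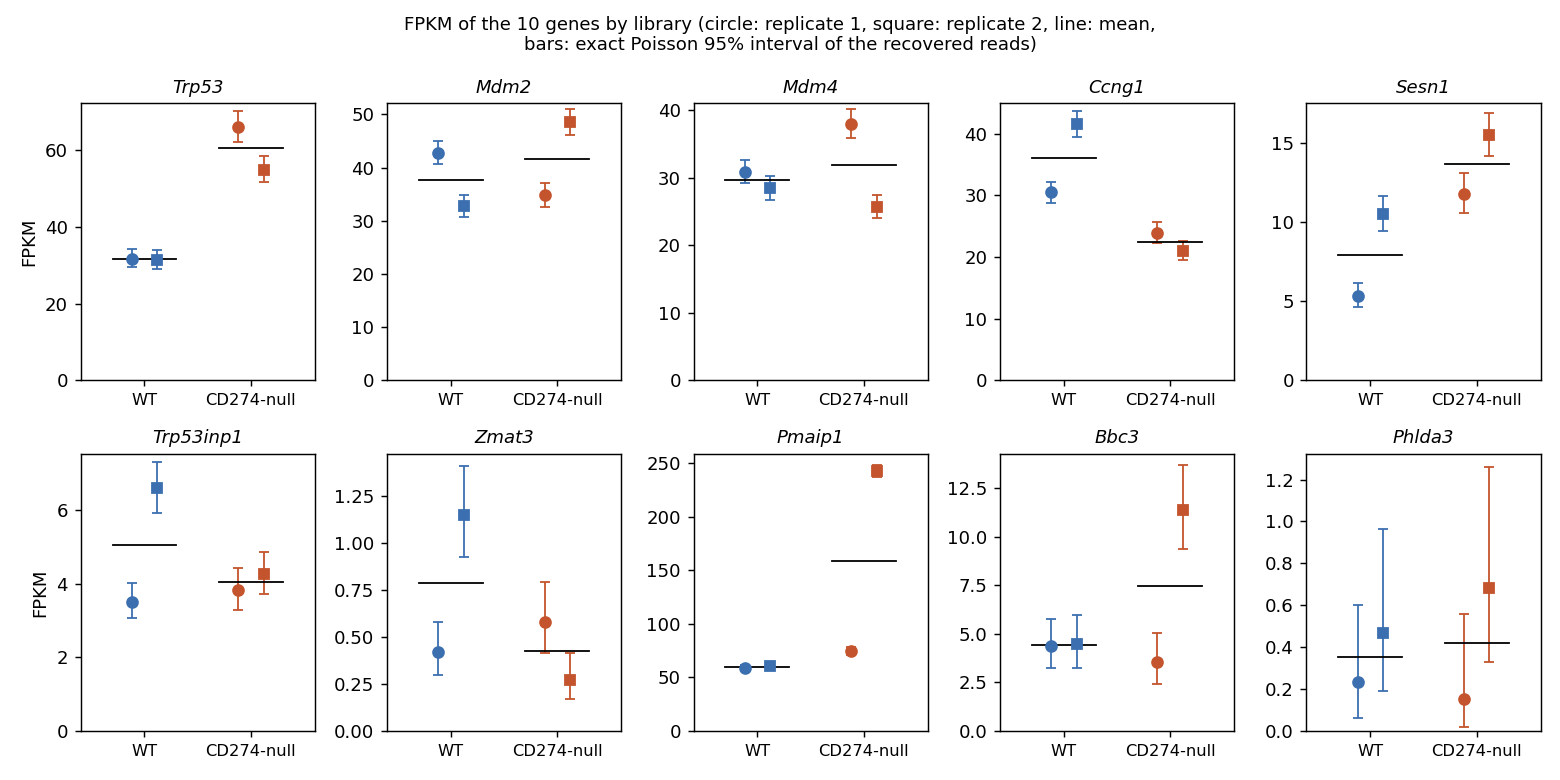
FPKM of each of the 10 genes in the 2 WT (blue) and 2 CD274-null (red) libraries, with replicate 1 as a circle, replicate 2 as a square, the group mean as a line and the exact Poisson 95% interval of the recovered reads as bars; each panel has its own linear axis from 0. Both CD274-null values lie above both WT values for Trp53, Sesn1 and Pmaip1 and below them for Ccng1, and the Pmaip1 value of 243 in CD274-null replicate 2 stands far above the other 3.

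The regulators did not separate the groups. Mdm2 (NCBI gene 17246, chromosome 10 from 117688875 to 117710758), at once the main inhibitor and a target of p53, had an FPKM of 42.7 and 32.7 in WT against 34.8 and 48.5 in CD274-null. The highest and the lowest CD274-null values enclosed the higher WT value, and the libraries of 1 genotype differed from each other by more than the group means did. Its log2 fold change was 0.13 (SE 0.26, 95% interval -0.50 to 0.77, adjusted p = 0.853 in limma). Mdm4 (NCBI gene 17248, chromosome 1 from 132986105 to 133030587) had 30.9 and 28.4 in WT against 37.9 and 25.6 in CD274-null, with a log2 fold change of 0.07 (SE 0.26, 95% interval -0.55 to 0.70, adjusted p = 0.921 in limma). Its highest and lowest values were both in CD274-null libraries. The sign of both regulators turned with 1 library: Mdm2 was -0.10 without CD274-null replicate 2 and -0.06 without WT replicate 2, and Mdm4 was -0.20 without CD274-null replicate 1.

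None of the targets linked to cell cycle arrest and antioxidant defence was a candidate, and their estimates had both signs. Ccng1 (NCBI gene 12450, chromosome 11 from 40748552 to 40755309) encodes cyclin G1, a widely used readout of p53 activity that recruits a phosphatase to MDM2. It had an FPKM of 30.5 and 41.5 in WT against 23.9 and 20.97 in CD274-null, from 1230, 1475, 737 and 728 reads, so that both CD274-null libraries were below both WT libraries. The log2 fold change was -0.66 (SE 0.24, 95% interval -1.25 to -0.07, unadjusted p = 0.0343, adjusted p = 0.339 in limma). It was -0.49 with the GC correction (unadjusted p = 0.0612 in limma) and between -0.88 and -0.44 with a library left out. In the linear model without moderated variances the unadjusted p of Ccng1 was 0.110. Sesn1 (NCBI gene 140742, chromosome 10 from 41810574 to 41908436) encodes sestrin 1, which restrains mTORC1 and oxidative damage. Its FPKM was 5.36 and 10.5 in WT against 11.8 and 15.5 in CD274-null, so that the groups did not overlap, although WT replicate 2 was closer to CD274-null replicate 1 than to WT replicate 1. The log2 fold change was 0.81 (SE 0.37, 95% interval -0.09 to 1.70, adjusted p = 0.400 in limma), and it was 0.35 without WT replicate 1 and 1.26 without WT replicate 2.

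Trp53inp1 (NCBI gene 60599, chromosome 4 from 11156441 to 11174379), whose product promotes p53 phosphorylation and autophagy, had an FPKM of 3.52 and 6.60 in WT against 3.83 and 4.27 in CD274-null. The CD274-null libraries lay between the WT libraries, and the log2 fold change was -0.23 (SE 0.37, adjusted p = 0.816 in limma) and 0.18 without WT replicate 2. Zmat3 (NCBI gene 22401, chromosome 3 from 32334792 to 32365665), an RNA-binding zinc finger protein, had 0.422 and 1.15 in WT against 0.581 and 0.271 in CD274-null, from between 21 and 91 reads. Its groups overlapped (log2 fold change -0.43, SE 0.50, adjusted p = 0.729 in limma), and WT replicate 2 was the highest library, as for Trp53inp1 and Ccng1. The log2 fold change of Zmat3 was between -0.85 and -0.01 with a library left out and between -0.79 and -0.30 in the other alternative fits. Phlda3 (NCBI gene 27280, chromosome 1 from 135766085 to 135769134), a repressor of AKT, had an FPKM of 0.236, 0.469, 0.154 and 0.685 in the same order of libraries, from 4, 7, 2 and 10 reads. It was below the mean FPKM of 0.5 required for the test, so its change was not tested.

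The apoptotic targets were high in 1 of the CD274-null libraries. Pmaip1 (NCBI gene 58801, chromosome 18 from 66458604 to 66465558) encodes NOXA, a BH3-only protein that neutralizes MCL1. It had an FPKM of 58.7 and 60.3 in WT against 74.4 and 243 in CD274-null, from 1801, 1630, 1747 and 6414 reads. CD274-null replicate 2 was 3.26 times replicate 1, whereas the WT libraries differed by a factor of 1.03. The groups did not overlap, and the log2 fold change was 1.17 (SE 0.52, 95% interval -0.09 to 2.43, adjusted p = 0.387 in limma). Without CD274-null replicate 1 it was 2.02 and a candidate (unadjusted p = 0.00223, adjusted p = 0.517 in limma). Without CD274-null replicate 2 it was 0.32 (unadjusted p = 0.252, adjusted p = 0.954 in limma), so the size of the difference rests on that library.

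Bbc3 (NCBI gene 170770, chromosome 7 from 16308398 to 16318334) encodes PUMA, a BH3-only protein that binds all survival members of the BCL2 family. Its FPKM was 4.37 and 4.47 in WT against 3.55 and 11.4 in CD274-null, from 50, 45, 31 and 112 reads. CD274-null replicate 2 was 3.21 times replicate 1, a ratio close to that of Pmaip1, while the remaining 3 libraries had overlapping Poisson intervals. The log2 fold change was 0.49 (SE 0.52, adjusted p = 0.697 in limma), 1.27 without CD274-null replicate 1 and -0.28 without CD274-null replicate 2.

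**Figure D2:**
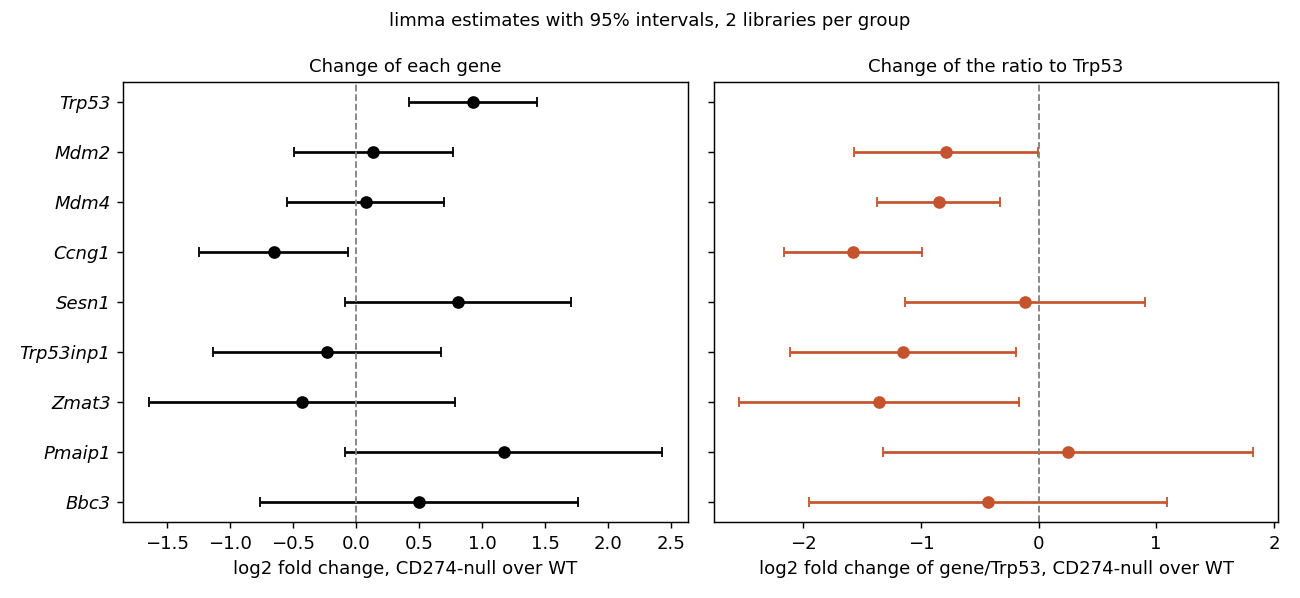
Left, log2 fold change of FPKM + 0.5 of CD274-null over WT for the 9 tested genes; right, the same for the ratio of each gene to Trp53; points are limma estimates and bars their 95% intervals, with 2 libraries per group. Trp53 lies at 0.92 with an interval above 0, and the ratio to Trp53 lies below 0 for 7 of 8 genes, with the narrowest distance from 0 for Sesn1 and with Pmaip1 at 0.25 on the other side.

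Whether a gene followed the Trp53 transcript was tested on the ratio of its value to that of Trp53 in the same library, with the same fit, thresholds and adjustment over 13229 genes. The ratio fell for Ccng1, by 1.58 on the log2 scale (SE 0.23, adjusted p = 0.0158 in limma). It fell by 0.85 for Mdm4 (SE 0.21, adjusted p = 0.0252 in limma), but Mdm4 was past the thresholds in 6 of 15 alternative fits and not with the GC correction. These 2 of 8 genes have to be read beside the background: 35.7% of all tested genes had a ratio to Trp53 past the same thresholds, 35.4% with a lower ratio, 51.3% had an adjusted p under 0.05, and 93.0% had a ratio below 0, since most genes did not change while Trp53 was higher. All of these ratios share the Trp53 values, so they are not independent of each other.

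For the other 6 genes the ratio did not pass the thresholds. It was -0.79 for Mdm2 (95% interval -1.57 to -0.01, adjusted p = 0.0800), -1.15 for Trp53inp1 (interval -2.11 to -0.19, adjusted p = 0.0512) and -1.35 for Zmat3 (interval -2.54 to -0.17, adjusted p = 0.0586), all from limma. For these 3 genes the interval lay below 0, which is no result about them where 51.3% of all tested genes passed even the adjusted limit of 0.05. For Sesn1 it was -0.11 (interval -1.13 to 0.90), for Pmaip1 0.25 (interval -1.32 to 1.82) and for Bbc3 -0.43 (interval -1.95 to 1.10). The intervals of Sesn1, Pmaip1 and Bbc3 include both a change equal to that of Trp53 and none at all, so these libraries do not decide between them. The count was 0 of 8 when the variances were not moderated, where 12.3% of all genes were called, and Ccng1 was past the thresholds in 14 of 15 alternative fits. Leaving out CD274-null replicate 1 brought Pmaip1 past them with a ratio that was higher, 1.23, in a fit that called 9.08% of all genes, and leaving out WT replicate 1 brought Trp53inp1 with a lower ratio, where 31.6% were called.

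By library, none of the 8 other tested genes of the circuit had the order of Trp53, whose values ran from CD274-null replicate 1 through CD274-null replicate 2 and WT replicate 1 to WT replicate 2. Of all other tested genes, 5.28% had that order. Mdm2, Sesn1, Pmaip1, Bbc3 and the untested Phlda3 were highest in CD274-null replicate 2, while 79.0% of all tested genes were highest in another library. Ccng1, Trp53inp1 and Zmat3 were highest in WT replicate 2, as were 3869 of all 13230 tested genes. Trp53 itself was higher in CD274-null replicate 1 than in replicate 2, as were Mdm4, Ccng1 and Zmat3, while Mdm2, Sesn1, Trp53inp1, Pmaip1, Bbc3 and Phlda3 were higher in replicate 2. Over the 4 libraries 4 of the 9 tested genes had groups that did not overlap, Trp53, Sesn1 and Pmaip1 higher and Ccng1 lower in CD274-null, where 47.3% of all tested genes had such groups. The median log2 fold change of the 6 tested targets was 0.13 and that of all tested genes 0.01. Without CD274-null replicate 2 this median was -0.24, without CD274-null replicate 1 it was 0.42, and over the 4 targets with a mean FPKM of 5 or more it was 0.65.

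**Figure D3:**
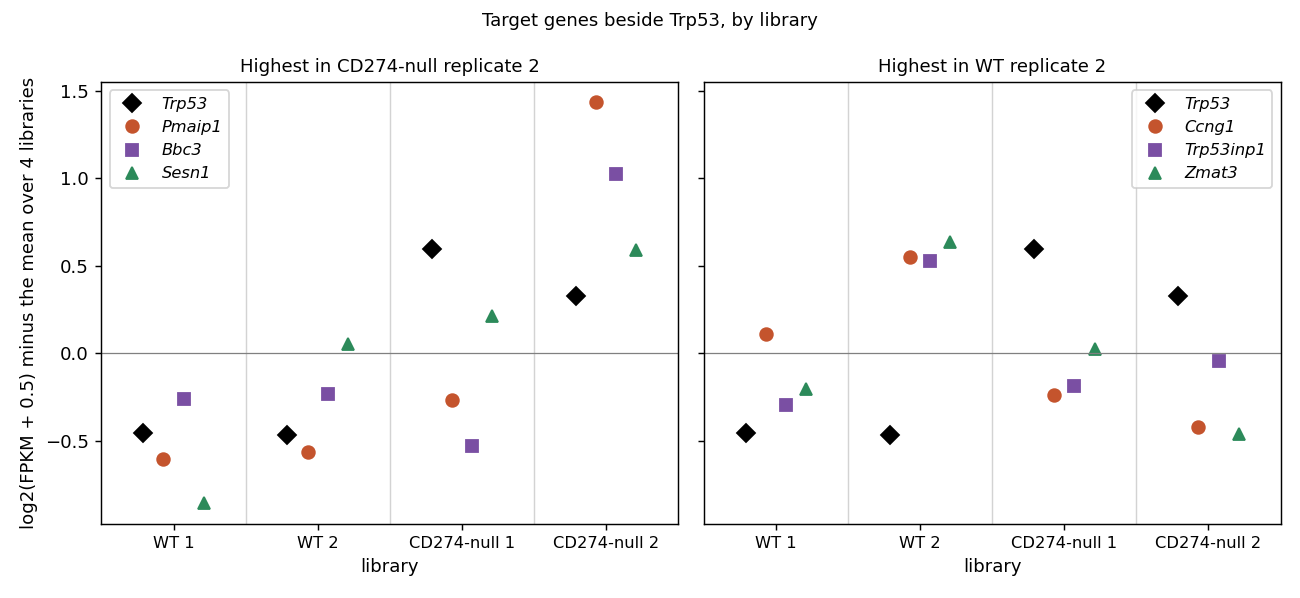
log2(FPKM + 0.5) of Trp53 (black diamonds, in both panels) and of the 6 tested targets in each library, minus the mean of the gene over the 4 libraries. The left panel shows the targets that were highest in CD274-null replicate 2 and the right panel those highest in WT replicate 2, whereas Trp53 is highest in CD274-null replicate 1.

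Genes whose pattern was most like that of Trp53 were sought by the distance between values of log2(FPKM + 0.5), centred on each gene's mean, over the 4 libraries, among genes averaging an FPKM of 5 or more. The 5 nearest were Sgsm3, Slc26a10, Setd1b, Ppil3 and Pde4a, at distances from 0.06 to 0.11. Sgsm3, the nearest, had an FPKM of 5.68 and 5.80 in WT against 13.02 and 10.3 in CD274-null. The nearest of the circuit was Sesn1 at 0.80, which ranked 3292 when all 13229 other tested genes, low ones included, were ordered, and the farthest was Ccng1 at 1.61, ranked 11410. Many genes were thus closer to Trp53 than the 8 other tested genes of the circuit were. The distance counts the size of a change as well as its direction, so a gene that hardly varies can lie closer than one that moves further. Pmaip1, higher in both CD274-null libraries, lay at 1.41 and ranked 10219.

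The wider pathway was examined in 3 lists. Of 31 other regulators, 29 were tested and 1 was a candidate, Cdkn2a, whose locus encodes p19Arf, an inhibitor of MDM2, and p16. Its FPKM was 16.4 and 5.10 in WT against 0.896 and 1.86 in CD274-null, from 215, 59, 9 and 21 reads, so that the WT libraries differed widely between themselves and both exceeded the CD274-null libraries (log2 fold change -2.42, SE 0.58, adjusted p = 0.269 in limma). One value covers both products. The Cdkn2a call was lost without WT replicate 1, without either CD274-null library, and in several alternative fits. Chek1 and Sirt1 were each called in a fit with a library left out, where a call describes 1 library and not a change of the group. At an unadjusted p under 0.05 in limma, 2 regulators were higher and 3 lower in CD274-null. Among all tested genes 3.63% were candidates and 13.7% had such a p, so 1 and 5 of 29 regulators lie near the background. Besides Cdkn2a, the lower ones were the p53 kinases Dyrk2, with an FPKM of 11.7 and 14.7 in WT against 7.94 and 5.83 in CD274-null (log2 fold change -0.90, SE 0.29, adjusted p = 0.303 in limma), and Hipk2, with 15.4 and 12.3 against 5.32 and 9.98 (log2 fold change -0.87, SE 0.35, adjusted p = 0.356 in limma). Neither had overlapping groups. The higher ones were Sirt1 and Ppp1r13l. Sirt1, a deacetylase of p53, had 14.9 and 10.3 against 22.2 and 58.7 and Ppp1r13l, an inhibitor of p53 (iASPP), had 0.939 and 0.659 against 2.78 and 2.47, with adjusted p = 0.299 and 0.291 from limma. Of the tested regulators, 15 had a positive and 14 a negative log2 fold change, with a median of 0.01, equal to that of all tested genes.

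Of 40 further targets, 35 were tested and 0 were candidates; at an unadjusted p under 0.05 in limma there was 1, Rrm2b, a ribonucleotide reductase subunit for DNA repair, and limma's voom on the recovered reads also gave 0 candidates. Both counts are below the shares of 3.63% and 13.7% among all tested genes. Rrm2b had an FPKM of 6.26 and 6.90 in WT against 3.73 and 2.98 in CD274-null (log2 fold change -0.88, SE 0.30, adjusted p = 0.316 in limma). Of the 35, 17 had a positive and 18 a negative log2 fold change, and the median was -0.01. Groups that did not overlap were found for 3 genes higher in CD274-null (Ddb2, Ak1 and Abhd4) and for 7 lower (Bax, Rrm2b, Aen, Ei24, Dram1, Apaf1 and Gtse1), against 25.6% and 21.8% of all tested genes. Bax, the pore-forming effector of apoptosis, had 88.2 and 81.3 in WT against 75.1 and 65.1 in CD274-null. Eda2r was listed at 0 in all libraries. Calls of Plk2, Pml and Xpc arose only with a library left out, where they describe 1 library and not a change of the group. The share of all tested genes called in those fits is not given here, so no weight is put on these calls.

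Of the 35 tested targets, 11 were highest in CD274-null replicate 2 and 14 in WT replicate 2, against 2779 and 3869 of all 13230 tested genes. Cdkn1a, which encodes the CDK inhibitor p21, had an FPKM of 63.1 and 32.1 in WT against 40.7 and 108 in CD274-null. Gadd45a, Btg2, Plk3 and Sertad1 had the same order of libraries or one close to it, with CD274-null replicate 2 highest and WT replicate 1 next: Gadd45a had 146 and 78.2 in WT against 68.8 and 220 in CD274-null, and Plk3 had 46.2 and 9.79 against 19.3 and 85.7. Plk2 was 14.8 and 11.8 in WT against 14.7 and 88.0 in CD274-null. Xpc and Pml, a DNA repair gene and the gene of a nuclear body protein, ran otherwise, with WT replicate 1 the lowest library, for Xpc (26.2 and 76.3 in WT, 56.9 and 69.6 in CD274-null) as well as for Pml (7.20 and 18.8, 16.5 and 20.2). WT replicate 1 was also the lowest library for Sesn1 and for further targets of the list, among them Fas, Polh, Dcxr and Tap1. This place of WT replicate 1 was thus not particular to Xpc and Pml, and its share among all tested genes was not counted. In CD274-null replicate 2, where Pmaip1, Bbc3, Plk2, Plk3 and Cdkn1a were highest, genes of the immediate early and stress responses, chosen after their values were seen, were high as well. They were picked for such values, so that their number carries no weight. Fos (509 and 424 in WT against 185 and 625 in CD274-null) and Jun (491 and 444, 127 and 650) were only slightly higher there than in WT replicate 1. Larger gaps were seen for Fosb (94.5 and 58.7 in WT, 60.3 and 479 in CD274-null), Atf3 (13.1 and 6.56, 16.2 and 44.4), Ddit3 (42.2 and 19.6, 41.8 and 107), Hspa1a (12.4 and 13.3, 2.91 and 130) and Ppp1r15a (62.0 and 76.3, 59.2 and 168), and Egr1 was highest in WT replicate 1. The part of these genes in the values of the p53 targets was not tested.

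Active p53 also lowers genes of the G2 phase and mitosis through p21 and the DREAM repressor complex. All 14 genes of such a list were tested and 0 were candidates in limma, 0 in voom; at an unadjusted p under 0.05 there was 1, Cdk1, with an FPKM of 33.1 and 35.5 in WT against 50.9 and 49.2 in CD274-null. Of the 14, 5 had a positive and 9 a negative log2 fold change, with a median of -0.13 and a range from -0.41 to 0.54. The shares among all tested genes, 3.63% for candidates and 13.7% for an unadjusted p under 0.05, leave these counts near the background.

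**Figure D4:**
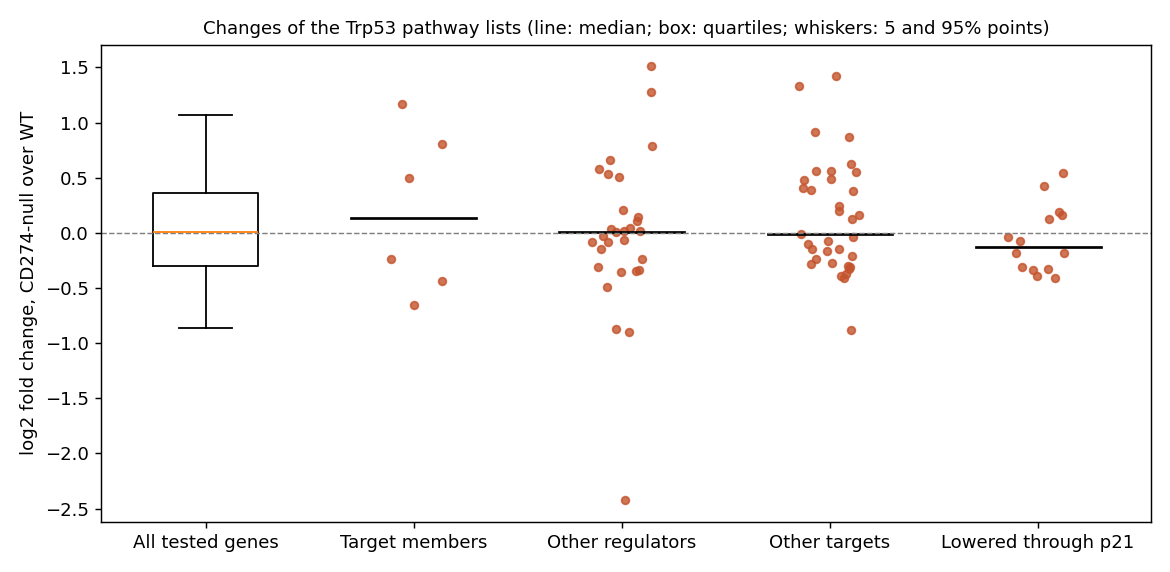
log2 fold change of FPKM + 0.5 of CD274-null over WT for the tested genes of each list (points, with the median as a line) beside all 13230 tested genes (box for the quartiles, whiskers for the 5% and 95% points). The medians of the lists lie between -0.13 and 0.13, and the lowest point is Cdkn2a at -2.42.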

How the data were processed

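LICs sorted from the MLL-AF9 model were sequenced in 4 libraries (TruSeq v2, HiSeq2500). The authors aligned reads to GRCm38 with TopHat2 2.0.12 after CASAVA 1.8.2, according to the methods and the submitters' processing notes, and deposited FPKM values; the program, gene lengths and strand setting behind them are not given in the sources used here. Groups came from sample titles and genotypes, symbols from RefSeq (GRCm38.p6, 25275 of 27179 genes). Within a gene, FPKM values are whole multiples of 1 read, so reads were recovered in lowest terms (tolerance 0.0003 reads) for 17083 genes (100% of the genes with a value above 0 in 2 or more libraries). They are lower bounds; their exact Poisson 95% intervals cover counting error only.

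For the 13230 genes averaging an FPKM of 0.5 or more, log2(FPKM + 0.5) was fitted with limma 3.58.1 (two-sided; trended eBayes) under R 4.3.3 and p-values were adjusted over them by Benjamini-Hochberg; the pseudocount understates the change of low genes. The fit was tested on simulated data. GC content came from the longest GENCODE M21 transcript of a gene. Named genes were the 10 members, Cd274, Cdkn1a, candidates of the 3 lists, the 5 genes nearest to Trp53, genes matched by the p53 primers and, where a result needed them, markers; other genes were named after their values were seen. The members and lists were chosen with earlier results of these data known. Alternatives were another pseudocount (1 or 0.1), no filter or a mean FPKM of at least 5, quantile or median scaling, eBayes without trend, no moderation, the replicate number as a block, GC correction (loess, span 0.3) with and without that block, and leaving out each library. Voom on the recovered reads was added after the data were seen.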

Additional observations from a re-analysis of the deposited data

How the results depend on the processing

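No direction of Trp53 changed under 16 alternatives, and its call held in 10. Its log2 fold change of 0.92 was the same but no longer past the candidate limit with eBayes without trend (limma, unadjusted p = 0.0124, adjusted p = 0.3004). The same held in the linear model without moderation (unadjusted p = 0.0202, adjusted p = 0.492), and 0 of the 9 genes were candidates in either fit. With a library left out the Trp53 change ranged from 0.79 to 1.05, also without passing the limit. The number of genes whose ratio to Trp53 differed was 1 with eBayes without trend, with the replicate block, with the GC correction and with both together, 0 without moderation, and from 1 to 2 with a library left out; the share of all genes called was 31.2%, 34.1%, 31.6%, 31.4% and 12.3% in these fits in turn, 31.6% and 28.8% without WT replicate 1 or 2, and 9.08% and 9.39% without CD274-null replicate 1 or 2. The number of other regulators called was 0 without a filter, with a mean FPKM of at least 5, with equal medians and without moderation. It was 2 with eBayes without trend and with the replicate block, while 0 other targets were called in any fit with all 4 libraries. In the fits with all 4 libraries, from 9.75% to 14.5% of all tested genes had an unadjusted p under 0.05 (limma or the linear model without moderation). The share of candidates among all genes is not given for these alternatives, so the counts are no result about the lists. The median change of the target genes was 0.65 for the 4 targets with a mean FPKM of at least 5, and from -0.24 to 0.42 with a library left out. With a library left out, Mdm2 ranged from -0.10 to 0.37, Mdm4 from -0.20 to 0.35, Trp53inp1 from -0.64 to 0.18 and Bbc3 from -0.28 to 1.27. The replicate numbers of the labels are not stated to mark shared animals, and with 2 pairs the pairing could not be checked. As a replicate block they left the Trp53 fold change at 0.92 (limma, unadjusted p = 0.00552, adjusted p = 0.220). With this block Sesn1 (unadjusted p = 0.0345 in limma) and Pmaip1 (unadjusted p = 0.0181 in limma) joined Trp53 and Ccng1 under 0.05. That made 4 genes of 9 in place of 2, where 13.3% of all tested genes had such a p. With block and GC correction together there were 3 of 9, against 12.9% of all. Only 1 of 9, Trp53, was under 0.05 with the GC correction, with eBayes without trend and without moderation, against 13.2%, 12.9% and 9.75% of all. Phlda3, Zmat3 and Bbc3 rest on 2 to 112 recovered reads per library, which are lower bounds. The part of depth in their spread was not tested.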
